A study of Homo sapiens with 3 samples.

Results

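The 10 genes described here encode proteoglycans of the connective tissue matrix and a protein that holds one of them in place. They are DCN (decorin), BGN (biglycan), ASPN (asporin), LUM (lumican), FMOD (fibromodulin), PRELP, OGN (osteoglycin, also called mimecan), PODN (podocan), VCAN (versican) and HAPLN1 (hyaluronan and proteoglycan link protein 1). They were chosen by symbol, and every probe set that names one of them and no other gene was taken. That gave 31 probe sets, of 54613 on the array, for 10 of the 19775 genes named. All 3 arrays carried RNA of IMR-90 ER:Ras cells, a derivative of the established human lung fibroblast line IMR-90 that carries an inducible Ras protein, ER:Ras. The OIS culture, named for oncogene-induced senescence, had been kept for 6 days with 4-hydroxytamoxifen (4-OHT) at 100 nM, the agent that switches the fusion protein on. The RS culture, named for replicative senescence, had been passaged over 10 weeks, and the growing culture was untreated. The RS and growing cells carried ER:Ras too, and among the 3 cultures only the OIS one was labelled as given 4-OHT, so active Ras and the agent itself cannot be told apart.

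Small leucine-rich proteoglycans are secreted proteins with a curved stack of leucine-rich repeats. Many bind collagen and help set the width and spacing of its fibrils, and several bind growth factors or their receptors. Decorin and biglycan carry chondroitin or dermatan sulfate chains, lumican and fibromodulin can carry keratan sulfate, and asporin and PRELP lack the chondroitin or dermatan sulfate chain of decorin. Versican is a large chondroitin sulfate proteoglycan of a different family, the lecticans, and it binds the polysaccharide hyaluronan. Link protein holds that bond together. Fibroblasts are a main source of decorin, lumican and versican in lung connective tissue.

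The values are MAS5 signals, a linear intensity per probe set. Signals at or below 45.5, the median of all values, were treated as not told apart from background and are called below the floor. A gene was represented by its brightest probe set, and counted as measured when that was above the floor on at least 1 array. With 1 array per condition the differences have no replicate check and no test was run. The only repeat reading of a gene came from its other probe sets. Over the 6759 genes whose brightest and second probe set both exceeded the floor on some array, the 2 log2 ratios differed with an SD of 0.51 for OIS over growing and 0.47 for RS over growing. For OIS over RS the SD was 0.52. That spread covers probe error only and not the spread between cultures. The 2% trimmed mean was 497 on each array, so the arrays had a common scale. All 10 fibroblast markers examined, COL1A1 and PDGFRA among them, were above the floor on all 3 arrays. Markers of other cell types were partly above it as well. Of those on the array 4 of 6 endothelial, 4 of 6 epithelial, 4 of 8 cartilage, 3 of 4 blood, 1 of 4 tendon and bone and 6 of 6 smooth muscle markers exceeded the floor on some array, while CDH5 of endothelium, CDH1 of epithelium, PTPRC of blood and COL2A1 of cartilage were below it on all 3. Of the endothelial markers 3 were at least 2-fold higher in OIS than in growing cells, ROBO4 the most at 5.47-fold. The summed signal of the endothelial list was 2147 in OIS, 2234 in RS and 1474 in growing cells. Most of it came from TEK, with 1274.8 in OIS, 2033.1 in RS and 1251.3 in growing cells. Of the epithelial markers EPCAM was 3.20-fold lower in OIS, and KRT8 and KRT18 were 2.20-fold and 2.01-fold higher in RS. The epithelial sum was 3187 in OIS, 6509 in RS and 3365 in growing cells. KRT18 made up most of it, with 2962.8 in OIS, 6010.1 in RS and 2987.4 in growing cells. The cartilage sum was 2970 in OIS, 3433 in RS and 2584 in growing cells, most of it from SOX9. MATN3 was 4.50-fold lower in OIS than in growing cells, while COL11A2, SOX9 and ACAN were 1.57-fold, 1.49-fold and 1.26-fold higher. The smooth muscle sum was 12176 in OIS, 30628 in RS and 20167 in growing cells, most of it from ACTG2, with 10810.7 in OIS, 27381.4 in RS and 18785.6 in growing cells. SYNM, with 791.7 in OIS, 1909.9 in RS and 612.5 in growing cells, was not lower in OIS than in growing cells. The blood sum lay between 101 and 170 and the tendon and bone sum between 34.4 and 101 on the 3 arrays. The part of these differences in the results below was not tested, and fewer cells of a type cannot be told apart from less RNA per cell in such cultures.

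The promoters of BGN and VCAN are shown because BGN was the member that was lower in RS, and VCAN the brightest one whose probe sets were all higher in OIS. Each is the 250 bases before the gene's start, 5′ to 3′ on the plus strand, from RefSeq, build GRCh38.p14. BGN lies at chrX:153494730-153494979 and VCAN at chr5:83471494-83471743. Capitals mark every match on either strand to the GC box GGGCGG, the TATA box TATAAA or the AP-1 site TGANTCA, which do not overlap each other here.
BGN: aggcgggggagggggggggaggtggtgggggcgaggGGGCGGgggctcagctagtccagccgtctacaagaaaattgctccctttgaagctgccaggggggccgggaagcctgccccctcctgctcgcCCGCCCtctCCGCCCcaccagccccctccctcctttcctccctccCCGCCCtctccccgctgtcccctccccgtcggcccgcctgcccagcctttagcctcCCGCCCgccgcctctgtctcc
VCAN: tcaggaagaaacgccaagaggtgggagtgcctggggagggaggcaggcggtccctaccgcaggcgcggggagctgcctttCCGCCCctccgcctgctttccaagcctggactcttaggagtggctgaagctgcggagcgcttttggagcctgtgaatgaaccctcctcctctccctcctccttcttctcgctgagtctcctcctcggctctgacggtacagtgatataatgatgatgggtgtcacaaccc

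All capitals in both windows are GC boxes, 5 in BGN and 1 in VCAN, and neither window held a TATA box or AP-1 match. Of 35116 promoter windows of this length in the table, 42.6% held a GC box, 10.7% a TATA box and 6.57% an AP-1 match. G and C made up 74.0% of the BGN window and 60.8% of that of VCAN. Entries were found for 8 of the 10 genes, and none for DCN and LUM, the members with the highest mean log2 signal. Among the windows found, those of ASPN and OGN, the genes below the floor on every array, were the poorest in G and C. They held 32.4% for ASPN and 36.0% and 31.2% for the 2 starts of OGN. The windows of the other dim members, HAPLN1, FMOD, PRELP and PODN, held from 50.8% for HAPLN1 to 72.4% for PODN. With DCN and LUM missing, a relation of this content to signal was not tested. A match to these letters is a description of the sequence and not a shown binding site.

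In OIS the decorin message was lower, versican stood higher on every probe set by less than 2-fold, and lumican and biglycan lay close to growing cells. In RS decorin was near its growing level, lumican stood higher and biglycan lower. The senescent states therefore differed from each other in decorin and lumican, both lower in OIS than in RS, and in biglycan, which was higher in OIS than in RS. The remaining 6 genes were dim or below the floor throughout.

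Decorin, which coats collagen fibrils and binds TGF-beta and receptor tyrosine kinases, was read by 7 probe sets. Its brightest, 201893_x_at, gave 7745.9 in OIS, 22971.2 in RS and 20075.4 in growing cells. The OIS array was low and the other 2 were close together. The log2 ratio of OIS over growing was -1.37, a 2.59-fold lower level, and that of RS over growing 0.19. Other bright probe sets gave larger differences in OIS. Probe set 211813_x_at read 4585.8 in OIS, 15926.4 in RS and 15395.1 in growing cells, 3.36-fold lower in OIS than in growing cells. Probe set 211896_s_at read 4046.5 in OIS, 17421.1 in RS and 17986.8 in growing cells, 4.45-fold lower in OIS. For 209335_at, whose name does not mark it as shared between transcripts, the signals were 1189.8 in OIS, 6134.6 in RS and 7238.0 in growing cells, 6.08-fold lower in OIS. The brightest probe set thus gave the smallest OIS difference of these 4, and the gap between it and 209335_at, in log2 ratios of -1.37 and -2.60, was wider than the SD between probe sets.

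The dim decorin probe sets that exceeded the floor on some array were lower in both senescent states. Probe set 242605_at read 40.6 in OIS, 97.2 in RS and 195.7 in growing cells, at least 4.30-fold lower in OIS than in growing cells and 2.01-fold lower in RS. Probe set 240556_at read 4.4 in OIS, 27.0 in RS and 88.4 in growing cells, above the floor in growing cells alone. The seventh, 239786_at, was below the floor on all 3 arrays. All 6 probe sets above the floor on the OIS or growing array were lower in OIS, 5 of them by at least 2-fold, with a median log2 ratio of -1.93. Between RS and growing cells the 4 bright probe sets spanned log2 ratios of -0.24 to 0.19.

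Biglycan, the closest relative of decorin and a ligand of innate immune receptors when released from the matrix, had 3 probe sets. The brightest, 213905_x_at, read 965.1 in OIS, 370.4 in RS and 816.1 in growing cells. Only the RS array was low. Biglycan was 2.20-fold lower in RS than in growing cells, 1.18-fold higher in OIS than in growing cells and 2.61-fold higher in OIS than in RS. A second probe set, 201261_x_at, read 619.7 in OIS, 241.2 in RS and 591.9 in growing cells and gave 2.45-fold lower in RS, so the readings differed by less than the spread between probe sets. The remaining probe set was below the floor on all arrays, at 39.2 in OIS, 17.6 in RS and 7.9 in growing cells. All biglycan probe sets have names ending in _s_at or _x_at, which marks probes that may also read other transcripts.

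Asporin, which competes with decorin for collagen and can bind calcium, was below the floor everywhere. Its brighter probe set read 29.1 in OIS, 44.0 in RS and 28.8 in growing cells, and the other 4.0 in OIS, 17.2 in RS and 0.7 in growing cells. No fold is given for it.

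Lumican, a keratan sulfate proteoglycan that regulates collagen fibril assembly, is the next coding gene to decorin in the GRCh38.p14 annotation, on chromosome 12. Its brightest probe set, 201744_s_at, read 10701.6 in OIS, 23797.7 in RS and 13728.6 in growing cells. The RS array was high and the other 2 differed by 1.28-fold, with OIS the lower. Lumican was 1.73-fold higher in RS than in growing cells by this probe set. By its other one, 229554_at, with 323.4 in OIS, 775.6 in RS and 366.9 in growing cells, it was 2.11-fold higher. The log2 ratios of 0.79 and 1.08 lie on either side of the 2-fold limit and differ by less than the SD between probe sets. Between the senescent states lumican was 2.22-fold lower in OIS than in RS by the first and 2.40-fold lower by the other. Neighbouring lumican and decorin thus had different profiles, with decorin low in OIS alone and lumican high in RS alone, while KERA and EPYC, the next 2 family genes on that side, were below the floor on all 3 arrays.

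**Figure D1:**
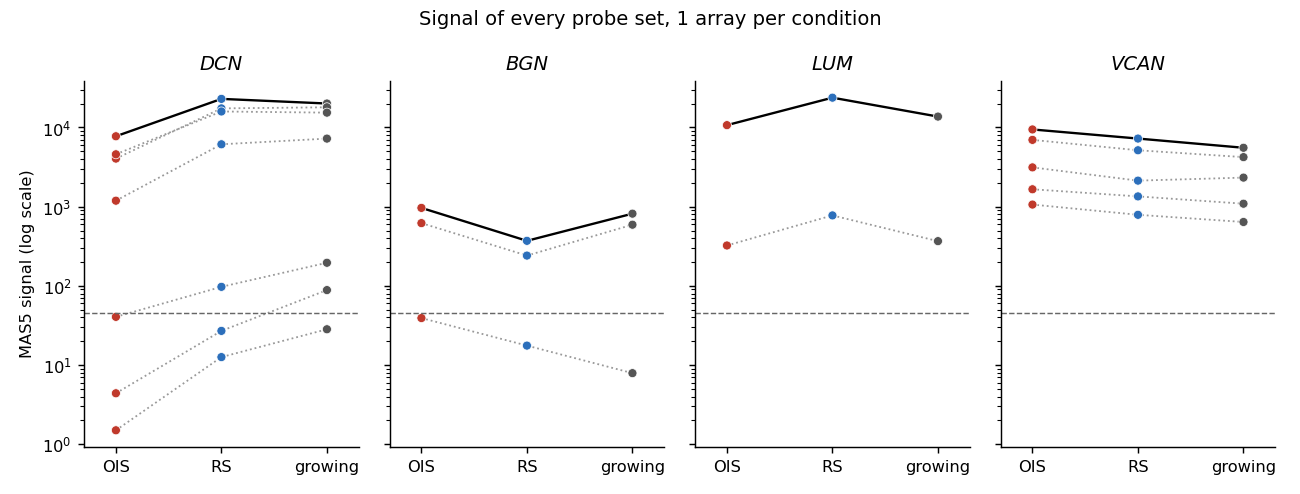
MAS5 signal on a log axis in the OIS, RS and growing arrays for every probe set of DCN, BGN, LUM and VCAN, with the brightest probe set joined by a solid line and the others by dotted lines. The dashed line is the floor of 45.5, each point is 1 array, and the lines join readings of 1 probe set and stand for no time course. DCN is lowest in OIS on the 5 probe sets above the floor on the OIS or RS array. BGN is lowest in RS on its 2 bright ones, LUM highest in RS on both and VCAN highest in OIS on all 5.

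Fibromodulin, which also binds collagen and competes with lumican for it, had 1 probe set. It read 103.5 in OIS, 137.6 in RS and 105.1 in growing cells, 1.31-fold higher in RS than in growing cells and 1.02-fold lower in OIS. Those differences lie inside the spread between probe sets. PRELP, which links basement membranes to collagen, lies next to fibromodulin on chromosome 1. Its brightest probe set, 37022_at, gave 183.0 in OIS, 107.2 in RS and 167.5 in growing cells, 1.56-fold lower in RS than in growing cells. A second, 204223_at, gave 47.2 in OIS, 60.2 in RS and 5.3 in growing cells, at least 1.32-fold higher in RS. The readings for PRELP thus disagree in sign, and no direction is given for it in RS. The remaining probe set was below the floor, at 6.3 to 10.8.

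Osteoglycin, found in bone and many connective tissues, was below the floor on all arrays, with 28.0 in OIS, 14.9 in RS and 25.3 in growing cells on the brighter of 2 probe sets. Its chromosome 9 neighbours OMD, asporin and ECM2 were dim too: OMD was below the floor on all 3 arrays, and ECM2, with 26.0 in OIS, 34.1 in RS and 50.1 in growing cells, exceeded it in growing cells alone. Podocan had 2 probe sets. The brighter, 226522_at, read 75.5 in OIS, 147.9 in RS and 110.7 in growing cells, 1.47-fold lower in OIS than in growing cells and 1.96-fold lower in OIS than in RS. The other, 233148_at, read 98.0 in OIS, 96.8 in RS and 100.0 in growing cells, so it showed almost no difference. The probe sets disagree by more than the SD between probe sets in OIS over RS, where their log2 ratios were -0.97 and 0.02. They also do so, narrowly, in OIS over growing, with -0.55 and -0.03.

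Versican, which makes the matrix around cells looser and more hydrated and is made into several splice forms, was read by 5 probe sets, all above the floor on every array. The brightest, 221731_x_at, read 9442.8 in OIS, 7247.1 in RS and 5544.7 in growing cells, 1.70-fold higher in OIS and 1.31-fold higher in RS. The next, 204620_s_at, read 6974.2 in OIS, 5156.7 in RS and 4223.2 in growing cells, 1.65-fold higher in OIS. Both probe sets order the arrays the same way. The lowest readings came from 211571_s_at, with 1063.0 in OIS, 789.4 in RS and 640.5 in growing cells. All 5 were higher in OIS than in growing cells, with log2 ratios from 0.43 to 0.77, and none reached 2-fold. In RS 4 of 5 were higher than in growing cells, by at most 1.31-fold, and 204619_s_at was lower, with 3134.4 in OIS, 2131.6 in RS and 2328.2 in growing cells. All 5 were higher in OIS than in RS, by 1.23-fold to 1.47-fold. These 5 readings are of the same RNA and are not replicates, and all 5 names end in _s_at or _x_at. Which splice form each one reads is not stated in the sources used here.

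HAPLN1, which fastens versican to hyaluronan, is the next coding gene to VCAN on chromosome 5. Its brightest probe set, 230204_at, read 30.8 in OIS, 67.5 in RS and 30.5 in growing cells. It was above the floor in RS alone and at least 1.48-fold higher there than in growing cells. Another 2 probe sets were also above the floor in RS alone, at 54.7 and 46.2, against 9.1 and 5.6 in OIS and 2.4 and 9.9 in growing cells. The last was below the floor on all arrays. Because these RS readings are near the floor, the ratios depend on where it is set. Its log2 ratio of RS over growing was 1.15 with the floor at the 25th percentile, 11.7, and 0.00 with the floor at the 60th, 88.8.

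**Figure D2:**
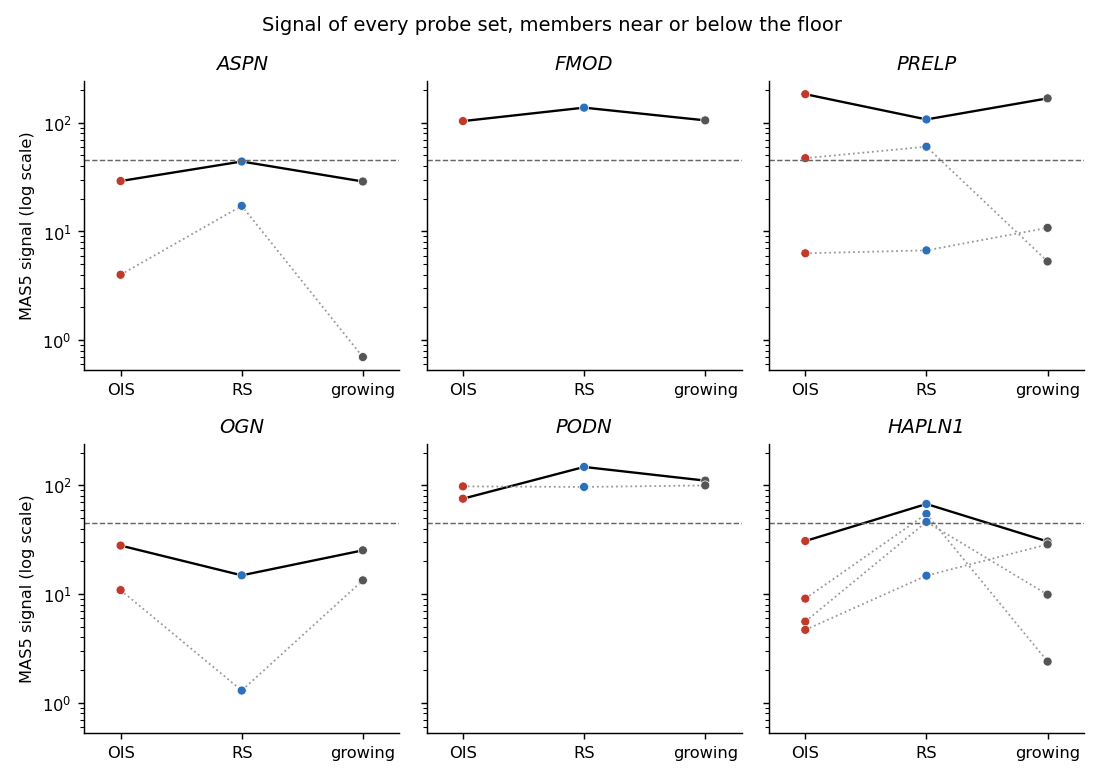
MAS5 signal on a log axis in the OIS, RS and growing arrays for every probe set of ASPN, FMOD, PRELP, OGN, PODN and HAPLN1, drawn with solid lines for the brightest probe set and dotted lines for the others. The dashed line is the floor of 45.5, each point is 1 array, and the lines stand for no time course. ASPN and OGN stay below the floor, HAPLN1 exceeds it in RS alone, and the probe sets of PRELP order the arrays differently.

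Set against growing cells, 1 of the 8 measured genes was at least 2-fold lower in OIS, namely decorin, and none at least 2-fold higher. The background, over the 13466 genes measured, was 6.63% lower and 4.92% higher by that limit. In RS biglycan was the 1 gene of 8 at least 2-fold lower, where the background is 5.58%, and none was at least 2-fold higher, where it is 3.72%. In OIS over RS 2 of 8 were at least 2-fold lower, decorin and lumican, against 5.27% of all genes, and 1 was at least 2-fold higher, biglycan, against 5.48%. With 8 genes a count of 1 already makes 12.5%, so these counts do not set the group apart. Of the 8, HAPLN1 was counted as measured only through its RS reading, and ASPN and OGN were not counted.

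The median log2 ratio of the 8 genes was -0.01 in OIS and 0.39 in RS, each over growing cells, and -0.49 in OIS over RS, where the median over all measured genes was 0.00 each time. The genes did not shift together. In OIS they ran from -1.37 for DCN to 0.77 for VCAN, and in RS from -1.14 for BGN to 0.79 for LUM. The interval between the 5th and the 95th percentile of all measured genes ran from -1.15 to 0.996 in OIS over growing and from -1.06 to 0.87 in RS over growing. DCN in OIS and BGN in RS fall below its lower ends, and the other ratios lie inside it. In OIS over RS the interval ran from -1.02 to 1.04, with DCN at -1.57 and LUM at -1.15 below it, BGN at 1.38 above it and the other 5 inside. The OIS and RS ratios share the growing array.

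**Figure D3:**
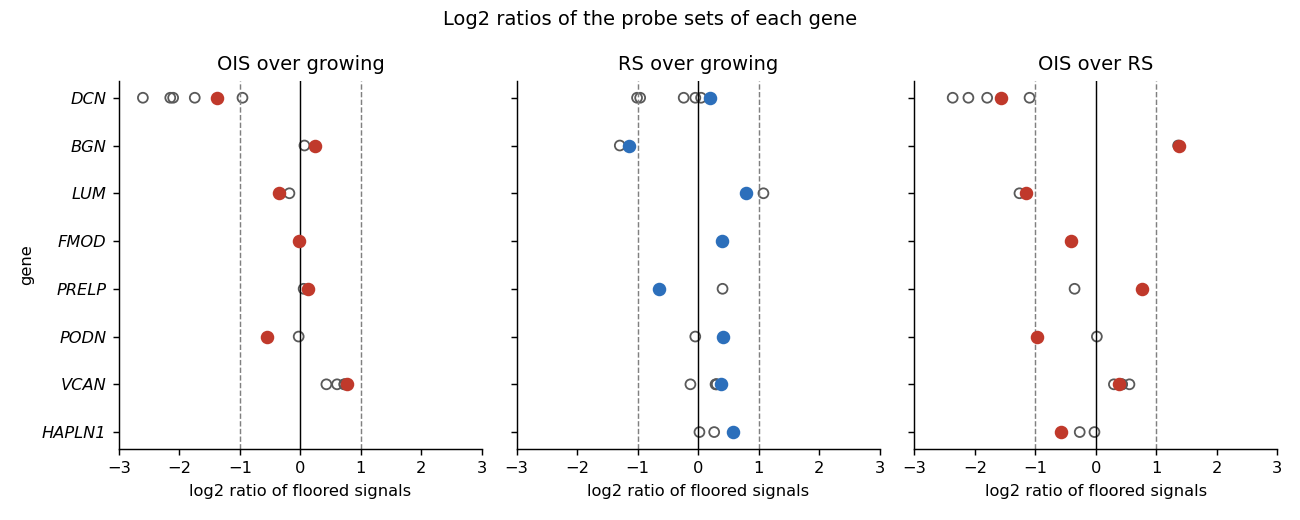
Log2 ratio of floored signals on the x axis for each gene with a probe set above the floor, in a panel per comparison. Filled points are the brightest probe set of a gene, open points its others, and dashed lines mark 2-fold. DCN lies left of zero in OIS on 6 probe sets, and BGN lies beyond the left 2-fold line in RS on 2.

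**Figure D4:**
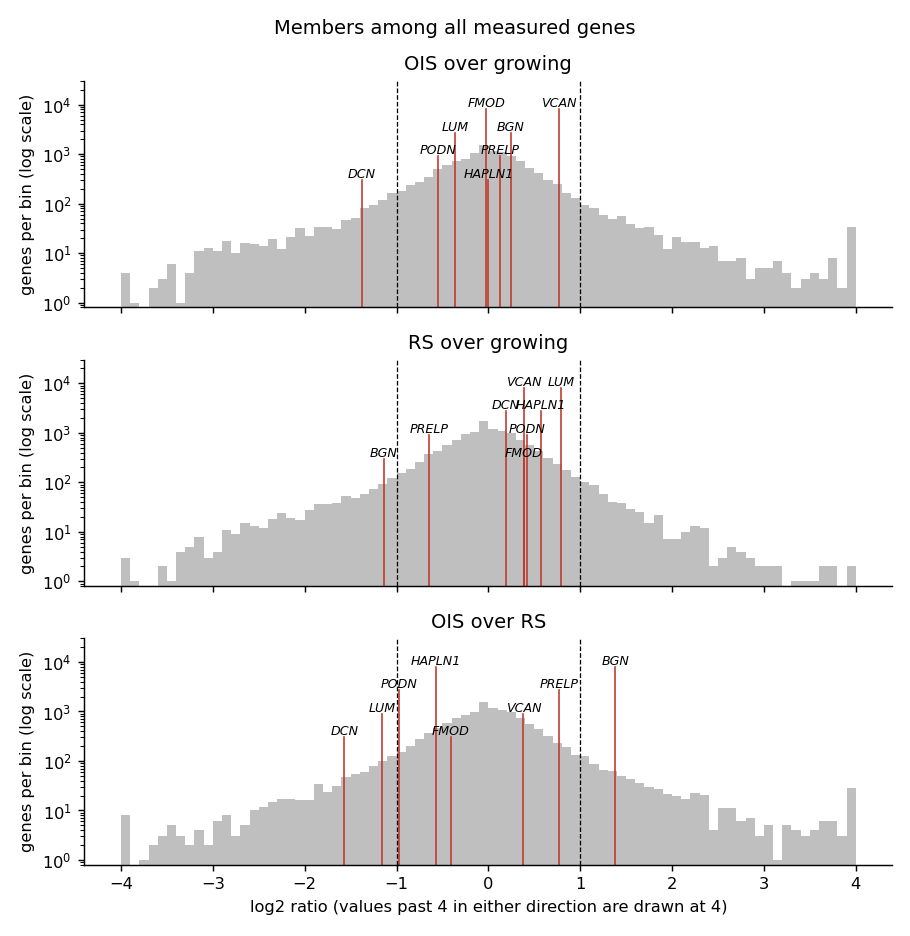
Histogram of the log2 ratios of the 13466 measured genes, in bins on the x axis and with gene numbers on a log y axis, for each comparison. Red lines mark the 8 measured members and dashed lines 2-fold. DCN at -1.37 in OIS over growing and BGN at -1.14 in RS over growing are past the lower line.

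The profile of decorin, which had the highest mean log2 signal of the 10 genes over the 3 arrays, just above lumican, was set against the 11295 genes above the floor on all 3 arrays, by the distance between their pairs of log2 ratios over growing cells. The nearest was CLU, which encodes the secreted chaperone clusterin, at a distance of 0.0076. Its signals were 1391.8 in OIS, 4117.9 in RS and 3590.3 in growing cells. Next came the growth factor FGF7, at 0.049, with 311.0 in OIS, 882.1 in RS and 795.6 in growing cells, and ELL3, at 0.070. With 3 arrays such a likeness is a description and many genes can come close.

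The family relatives outside the 10 genes were dim. Of 10 other small leucine-rich repeat proteoglycan genes 4 were measured, and of 6 other lectican and link protein genes 4, and none was past 2-fold in any comparison. The medians were 0.13 in OIS over growing and -0.14 in RS over growing for the first list, and 0.16 and 0.11 for the other. Aggrecan, ACAN, read 84.2 in OIS, 68.9 in RS and 66.9 in growing cells. The link protein HAPLN4 was above the floor in OIS alone, at 89.6, at least 1.97-fold higher than in growing cells.

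Some of the enzymes that build the sugar chains were past 2-fold. Of 20 measured genes of chondroitin and dermatan sulfate synthesis 3 were at least 2-fold higher and 1 lower in OIS than in growing cells, with a median log2 ratio of 0.32, and 2 were higher and none lower in RS, with a median of 0.41. The background over all measured genes was 4.92% higher and 6.63% lower in OIS, and 3.72% higher and 5.58% lower in RS. Counts this small do not set a list apart. CHST11, a sulfotransferase of chondroitin, was 3.75-fold higher in OIS by its brightest probe set, with 620.1 in OIS, 228.0 in RS and 165.5 in growing cells. Its 3 probe sets gave log2 ratios from 1.91 to 3.56, the brightest the smallest. CSGALNACT2, which starts or extends chondroitin chains, was 2.67-fold higher in OIS and 2.16-fold higher in RS. DSEL, an epimerase that turns chondroitin into the dermatan sulfate carried by decorin, was 3.58-fold lower in OIS, with 1980.1 in OIS, 6413.3 in RS and 7079.2 in growing cells. All 3 of its probe sets gave log2 ratios between -1.85 and -1.72. DSE, the other epimerase gene of the list, was not lower in OIS than in growing cells. It read 6690.0 in OIS, 3536.3 in RS and 5252.3 in growing cells, 1.27-fold higher in OIS. The sulfotransferase CHST3 was 2.48-fold higher in RS by its brightest probe set, while its other gave a log2 ratio of 0.75, short of 2-fold. Of 4 measured keratan sulfate genes 1 was at least 2-fold higher in OIS, and the median was -0.36 in OIS and -0.07 in RS, with none past 2-fold in RS. That gene was CHST2, at 4098.4 in OIS, 168.1 in RS and 200.3 in growing cells, 20.5-fold higher in OIS, although its other probe set gave a log2 ratio of 1.18 in place of 4.35.

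Of 11 measured proteases that cut these proteoglycans, 4 were at least 2-fold higher and 1 lower in OIS than in growing cells, with a median log2 ratio of 0.66, and 1 was higher and none lower in RS, with a median of 0.09. Over all measured genes 4.92% were higher and 6.63% lower in OIS by that limit, and 3.72% higher and 5.58% lower in RS. In lists of this size a count of 1 is no result about the list. Of the 4 proteases higher in OIS, MMP7 was measured only through its OIS reading, 211.7. MMP12, at 226.1 in OIS, was below the floor in growing cells. The lists were chosen with earlier results of these data known, so the count of 4 is a description only. MMP3, which can degrade decorin, was 14.5-fold higher in OIS, with 20538.7 in OIS, 1322.3 in RS and 1416.8 in growing cells. The versican-cutting ADAMTS1 was 2.19-fold lower in OIS by its brightest probe set, while its other gave a log2 ratio of -0.78, short of 2-fold. ADAMTS5 was 3.08-fold higher in RS, with log2 ratios from 1.29 to 1.62 on its 4 probe sets. Of 8 measured fibrillar collagens 1 was at least 2-fold higher and none lower in OIS, with a median of 0.33, and 1 was higher and 1 lower in RS, with a median of 0.07. COL1A2, a main collagen of decorin-coated fibrils, was 1.03-fold higher in OIS than in growing cells by its brightest probe set, while its 3 probe sets gave log2 ratios from -0.84 to 0.04. COL5A3 was low in RS, with 507.3 in OIS, 53.6 in RS and 236.9 in growing cells, 4.42-fold lower in RS.

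Of 11 measured receptors and ligands that bind these proteins 1 was at least 2-fold higher and 1 lower in OIS, with a median of 0.14, and 1 was higher and none lower in RS, with a median of 0.08. The background was 4.92% higher and 6.63% lower in OIS, and 3.72% higher and 5.58% lower in RS. The receptor MET, a decorin partner, read 272.2 in OIS, 3223.4 in RS and 2146.3 in growing cells on its brightest probe set, 7.89-fold lower in OIS, but a second gave a log2 ratio of 0.02. VEGFA was 3.20-fold higher in OIS by its brightest probe set, with log2 ratios from 0.41 to 2.13 on its 4 probe sets. TGFB2, whose family decorin and biglycan bind, was 3.30-fold higher in RS, with 1 of 4 probe sets in the other direction. The hyaluronan receptor CD44, a partner of versican, read 29061.9 in OIS, 31432.7 in RS and 26734.2 in growing cells, less than 2-fold apart. TLR2 and TLR4, receptors of biglycan, were below the floor on all arrays. In OIS over RS, 1 of 20 measured chondroitin and dermatan sulfate genes was at least 2-fold higher and 3 were lower. Of 4 keratan sulfate genes 1 was higher and none lower. Of 11 proteases 4 were higher, MMP7 measured only through its OIS reading, and 2 were lower. Of 8 collagens 1 was higher and 1 lower, and of 11 receptors and ligands 1 was higher and 2 lower. Over all measured genes 5.48% were higher and 5.27% lower by that limit, and a count of 1 is no result about a list.

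**Figure D5:**
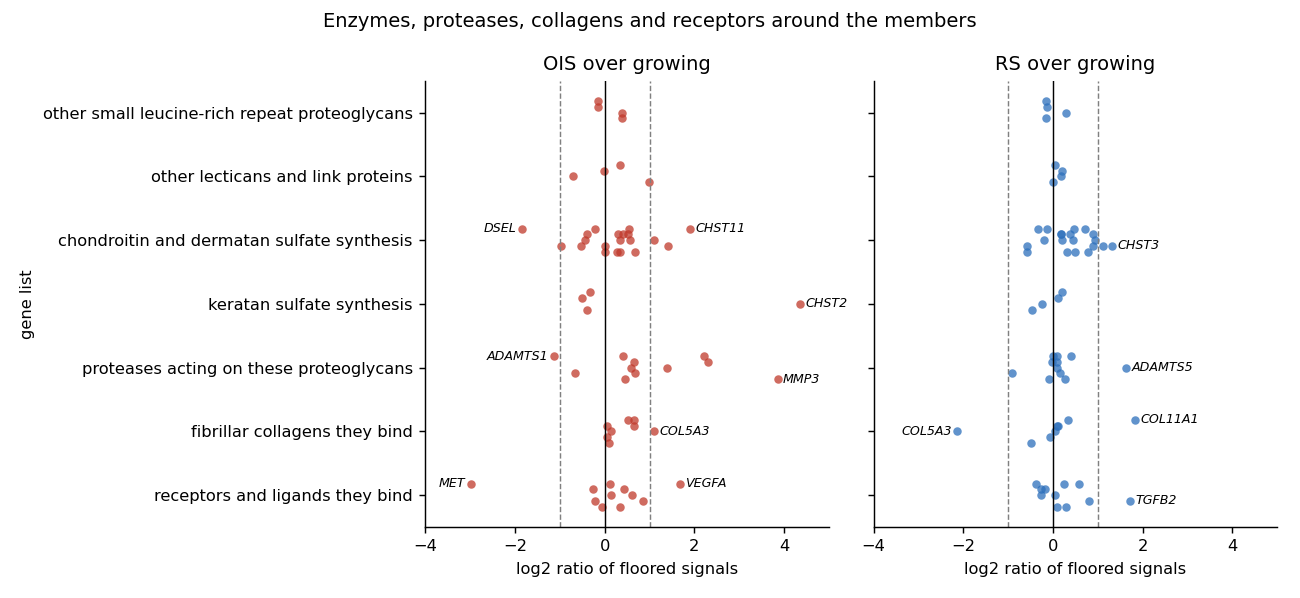
Log2 ratio of floored signals on the x axis for the measured genes of 7 lists around the members, in OIS over growing and RS over growing, with 1 point per gene and dashed lines at 2-fold. CHST2 at 4.35 and MMP3 at 3.86 lie farthest right and MET at -2.98 farthest left in OIS, and COL5A3 at -2.14 farthest left in RS.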

How the data were processed

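The authors deposited 1 linear intensity per probe set and array, and the submitters' processing notes name MAS5, with no version or settings given in the sources used here. Detection calls were not used. Genes were named from the platform annotation: 41091 probe sets name 1 gene, 1801 several and 11721 none, and only the first were used. All 10 members matched the RefSeq table, used for gene order and promoter sequence (GRCh38.p14); the signals carry no build. The labels gave the condition of each array.

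Signals below the pooled median were raised to it, the log2 of OIS or RS over growing cells and of OIS over RS was taken, and differences of at least 2-fold were counted. "At least" before a fold means that the lower of the 2 signals did not exceed the floor. With 1 array per condition there is no test, and the small number of arrays limits precision. The steps were tested on simulated data, with differences planted in genes far above the floor and alike on every probe set of a gene. That check does not cover genes near the floor or probe sets that disagree.

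The members and lists were chosen with earlier results of these data known. Named genes are all members, up to 2 genes at either end of each of 7 lists per comparison, and the 3 genes nearest in log2 ratios to the member with the highest mean log2 signal; 7 lists of cell type markers are given by counts and summed signals. ACAN, CD44, TLR2, TLR4, KERA, EPYC, OMD and ECM2 are list members named for their roles or positions, and the marker genes named were chosen after their values were seen. Alternatives were quantile normalization, centring, a floor at the 25th or 60th percentile, a pseudocount of 16 without a floor, no filter, the median of all probe sets, no _s_at or _x_at probe sets, 3-fold, and, added after the data were seen, the second brightest probe set. The software was numpy 2.4.6, pandas 2.3.3 and matplotlib 3.10.9 under Python 3.11.15.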

Additional observations from a re-analysis of the deposited data

How the results depend on the processing

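No paired analysis was possible because each condition had 1 array, and no array could be left out. Of 234 recomputed log2 ratios of the members, 216 moved by less than the SD between probe sets, 18 moved by more, and none past 2-fold changed sign. The 216 include the centred ratios, which could not move because the median subtracted was 0 in each comparison. They also include ratios of ASPN and OGN held at 0 by the floor. Quantile normalization and the pseudocount moved none of the ratios by more than that SD and no count of genes by over 1.5 times. Without the filter only counts and medians were recomputed. The counts past 2-fold could not change, because the genes added were below the floor on every array and had log2 ratios of 0. With 3-fold in place of 2-fold the number of members past the limit was 0 in both directions in all 3 comparisons. Without _s_at and _x_at probe sets VCAN and BGN have none left, so 0 members were lower in RS than in growing cells and 0 higher in OIS than in RS, while 1 (LUM) was at least 2-fold higher in RS. That count was also 1 (HAPLN1) with the floor at the 25th percentile and 1 (LUM) with the second brightest probe set, an alternative chosen after seeing the data. The log2 ratio of DCN in OIS over growing was -2.60 without shared probe sets and -2.15 with the second brightest.

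Over all genes in place of 663 higher and 893 lower in OIS than in growing cells, the counts were 1541 and 1698 with the lower floor and 291 and 341 at 3-fold. In place of 501 higher and 751 lower in RS they were 1317 and 1614 with the lower floor and 147 and 317 at 3-fold, and 322 higher with the median of all probe sets. In place of 738 higher and 709 lower in OIS than in RS they were 1731 and 1579 with the lower floor and 305 and 252 at 3-fold. Signal near background limits FMOD, PRELP, PODN and HAPLN1, and no value carries a replicate error.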
